A study of Mus musculus with 9 samples.

Results

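The wild-type isotype culture comprised the 3 libraries, of 9 in the series, in which wild-type T cells met an antibody against CD3e without an antibody against CD40L. Members were chosen by their labels alone, as the 3 libraries titled wild type and isotype, and no measured value entered the choice. The cells were CD4+ T cells of the spleen of C57BL/6 mice, sorted as naive cells by flow cytometry and kept in plates coated with 1 µg/ml of antibody against CD3e and 19 µg/ml of an isotype control antibody. The genotype is given as wt and the treatment as isotype antibody. The other 6 libraries, 3 of wild-type cells on an antibody against CD40L and 3 of cells labelled KO on isotype antibody, were not used. The culture time and the age and number of animals were not stated in the labels, which also do not say whether the libraries came from separate animals, so the spread between them may be technical.

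CD3e belongs to the signalling complex of the T cell receptor, and a plate-bound antibody against it crosslinks the receptor without antigen. In a naive CD4+ T cell this starts kinase and calcium signals that raise early transcription factors and activation receptors within hours, then growth and, later, cell division and the choice of a helper lineage. Full cytokine production usually needs a second signal through CD28, which an isotype antibody does not give. CD40L, the subject of the series, is a member of the tumour necrosis factor family that activated CD4+ T cells carry on their surface and that binds CD40 on B cells and other antigen-presenting cells. RACK1, named in the series title, is a ribosome-bound scaffold protein that also binds activated protein kinase C.

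Levels are given as CPM, a gene's counts per 1000000 counts of its library, scaled by the TMM method, as mean ± SD over the 3 libraries (n = 3). Values joined by commas are those of replicates 1, 2 and 3 in that order. Long transcripts collect more counts, so genes are compared on CPM per kilobase of transcript, the per-kilobase level, except where an order or range is given in CPM. A gene counts as expressed where it reached 1 CPM in all 3 libraries, which corresponds to 11.24, 10.57 and 8.77 counts. A gene without a count in any library is compatible with up to 3 counts, or 0.0981 CPM over the group, counting error only.

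The libraries held 11007325, 10757512 and 8796628 counts over 25160 genes. Replicate pairs differed by more than counting error, with chi-square values per degree of freedom of 14.6, 9.03 and 6.22. None was thus the same library sequenced again, but this cannot tell whether libraries shared RNA or an animal. The largest of these values was for replicates 1 and 2. The row NR_046233, which entered these values, is a noncoding RNA that received no symbol. It took 1.184%, 2.635% and 2.368% of the counts, least in replicate 1. The naive-cell genes described below were more often highest in replicate 1.

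Of the 25160 genes, 10524 (41.8%) were expressed, 7606 (30.2%) had no count, and 7030 lay between. The split followed gene class. Among protein-coding genes 10026 of 20768 (48.3%) were expressed, against 348 of 2500 long noncoding RNA genes (13.9%) and 25 of 1227 rows of microRNA genes (2.04%), whose mature products this library type does not measure. The mean level reached 10 CPM in 8236 genes, 100 CPM in 2427 and 1000 CPM in 106. The median expressed gene lay at 36.77 CPM. The 10 most abundant genes held 6.997% ± 0.802 of the counts, the top 100 held 20.57% ± 0.941 and the top 1000 held 54.61% ± 0.865. The row NR_046233 is part of each of these shares and alone held 2.062% ± 0.772.

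**Figure D1:**
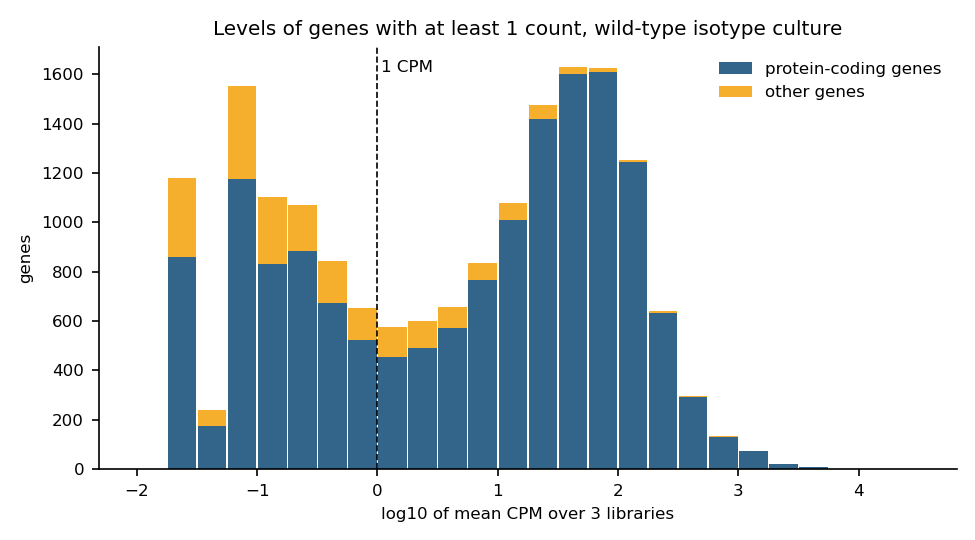
Histogram of mean level for genes with at least 1 count, with the log10 of mean CPM over the 3 libraries on the horizontal axis and the number of genes on the vertical axis. Blue bars are protein-coding genes and yellow bars, stacked on them, all other genes. One group of genes lies below the dashed line at 1 CPM and another around the median expressed level of 36.77 CPM.

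The DNA before the gene starts differed by level class. Promoters of housekeeping genes commonly lie in CpG islands, where the CG dinucleotide escapes the loss it suffers elsewhere, while many genes of single cell types start from CpG-poor DNA with a TATA box. For 16632 of 20768 protein-coding genes RefSeq gave a start, and the 250 bases before it were read (GRCm38.p6). Their median ratio of observed to expected CG was 0.188 in genes without a count, 0.392 in counted genes under 1 CPM, 0.635 from 1 to 10 CPM, 0.763 from 10 to 100 CPM and 0.817 at 100 CPM or more. The letters TATAAA on either strand occurred in 25%, 12.1%, 6.89%, 5.37% and 5.9% of these classes and in 12.2% of all. Matches were counted whether or not they overlapped others, and a match is a description of letters, not of a site. Of 2691 genes with several starts the first listed was taken. Immediate early genes lay in CG-rich DNA, with a median ratio of 0.805 over 20 genes, and MYC and ribosome biogenesis genes at 0.854 over 24. Proximal receptor signalling genes lay at 0.331 over 21, although all 26 on that list were expressed.

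Examples across these classes are shown 5′ to 3′ on the gene's strand, in lower case with each CG in capitals, since that dinucleotide is what differs between them. Rack1 was taken from the ribosomal group, Irf4 from the activation genes and Cd3e from the receptor complex. Il2 was taken as a cytokine near the threshold and Il17a as a silent cytokine. Each is a single gene, chosen after values were seen, and need not be typical of its group.
Rack1: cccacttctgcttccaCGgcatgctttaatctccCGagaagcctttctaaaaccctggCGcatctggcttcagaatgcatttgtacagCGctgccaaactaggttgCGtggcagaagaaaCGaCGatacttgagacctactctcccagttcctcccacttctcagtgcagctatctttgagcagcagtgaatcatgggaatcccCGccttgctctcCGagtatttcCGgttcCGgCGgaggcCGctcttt
Irf4: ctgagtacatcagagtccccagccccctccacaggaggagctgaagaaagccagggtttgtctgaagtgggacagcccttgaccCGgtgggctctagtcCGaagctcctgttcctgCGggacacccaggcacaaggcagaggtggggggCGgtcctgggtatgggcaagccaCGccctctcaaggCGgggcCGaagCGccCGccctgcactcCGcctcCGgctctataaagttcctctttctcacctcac
Cd3e: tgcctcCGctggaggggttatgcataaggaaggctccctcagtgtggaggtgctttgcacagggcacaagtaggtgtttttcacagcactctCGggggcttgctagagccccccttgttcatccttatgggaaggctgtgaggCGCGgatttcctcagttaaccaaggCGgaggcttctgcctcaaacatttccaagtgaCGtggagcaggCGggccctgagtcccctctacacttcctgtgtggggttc
Il2: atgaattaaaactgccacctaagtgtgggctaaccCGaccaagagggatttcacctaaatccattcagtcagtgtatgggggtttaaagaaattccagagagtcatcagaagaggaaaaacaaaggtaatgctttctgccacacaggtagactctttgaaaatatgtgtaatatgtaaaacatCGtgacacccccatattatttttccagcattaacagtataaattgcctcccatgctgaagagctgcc
Il17a: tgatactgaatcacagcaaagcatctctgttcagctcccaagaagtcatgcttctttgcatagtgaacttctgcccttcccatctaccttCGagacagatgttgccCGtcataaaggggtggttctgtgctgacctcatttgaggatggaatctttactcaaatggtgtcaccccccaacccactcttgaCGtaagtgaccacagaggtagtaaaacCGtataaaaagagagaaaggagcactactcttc

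The Rack1 window (chromosome 11, 48800110 to 48800359, plus strand) held 13 CG, a ratio of 0.758, and no TATAAA. The Irf4 window (chromosome 13, 30748983 to 30749232, plus strand) held 11 CG, a ratio of 0.437, with TATAAA beginning 26 bases before the start. The Irf4 window was not typical of genes at 100 CPM or more, whose lower quartile was 0.652 and of which 5.9% had TATAAA. The Cd3e window (chromosome 9, 45009612 to 45009861, minus strand) held 7 CG, a ratio of 0.344, and no TATAAA. It is placed before the start in the RefSeq table, which lies inside the kept transcript. The Il2 window (chromosome 3, 37125955 to 37126204, minus strand) held 2 CG, a ratio of 0.196, and the Il17a window (chromosome 1, 20730655 to 20730904, plus strand) 4 CG, a ratio of 0.306. Both had TATAAA beginning 31 bases before the start. Il2 at 4.96 ± 1.16 CPM and Il17a with no count thus shared these features of their windows, and Irf4 at 1489.9 ± 168 CPM had the TATAAA letters with more CG.

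The protein synthesis machinery led the libraries. Eef1a1, the elongation factor that brings aminoacyl-tRNA to the ribosome, was by CPM the most abundant gene with a symbol, at 13451, 13593 and 13661 CPM (13568 ± 108 CPM). It differed little between the libraries. Its muscle and neuron counterpart Eef1a2 was at 0, 0.378 and 0 CPM. Eef2, the translocation factor, was at 4854 ± 137 CPM, and Tpt1, a translation-linked growth protein, at 3219.7 ± 174 CPM. All 77 ribosomal protein genes measured lay above 100 CPM, from 328.7 CPM for Rpl35a to 3321.3 CPM for Rpsa. Together they held 9.12% ± 0.462 of the counts, and they filled 67 of the first 100 places in the per-kilobase order. Of 29 translation factors on the list fixed for this purpose, 28 were expressed and 26 reached 100 CPM.

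Rack1 (NM_008143, chromosome 11, 48800360 to 48806241, GRCm38) lay within this ribosomal group. Its values were 1982, 2106 and 1946 CPM. The 3 libraries overlapped closely, with a mean of 2011 ± 83.6 CPM and 1390.0 ± 57.8 CPM per kilobase. Per kilobase it lay between Eef1g at 982 ± 29.3 CPM per kilobase, a subunit of the elongation factor complex, and Eef2 at 1571 ± 44.4 CPM per kilobase. The other proteins of the list that RACK1 heads, protein kinases C and diacylglycerol kinases, are described with the receptor signals.

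Chaperones, nucleolar proteins and the actin cytoskeleton made up most of the other abundant genes. Hsp90ab1, the constitutive HSP90 chaperone, was at 6549, 6710.3 and 6824 CPM, nearly the same in each library. Its stress-inducible relative Hsp90aa1 lay lower on the per-kilobase scale, by 5.92 ± 0.207-fold. Hspa8, the constitutive HSP70, was at 4068, 4369.8 and 4479 CPM. The heat-inducible Hspa1a and Hspa1b were listed at 0.241 ± 0.271 CPM and 1.3 ± 1.17 CPM. Hspa1a and Hspa1b may share reads, and the treatment of multiply aligned reads was not stated in the labels, so both values are uncertain. All 8 subunits of the CCT chaperonin on the list (Cct2, Cct3, Cct4, Cct5, Cct6a, Cct7, Cct8 and Tcp1), which folds actin and tubulin, lay between 529.6 CPM for Cct7 and 817 CPM for Cct5. The testis subunit Cct6b had no count.

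Nucleolar and ribosome biogenesis genes, many of them known targets of MYC, were expressed in 29 of 29 cases, each at 100 CPM or more. Ncl (nucleolin) was at 3898, 3645 and 4049 CPM. Npm1 (nucleophosmin) was at 2368 ± 89.2 CPM. Odc1, the first enzyme of polyamine synthesis, was at 743 ± 46.1 CPM, Mybbp1a at 1025 ± 30.3 CPM and the box C/D protein gene Nop56 at 562 ± 20.029 CPM. The list had a median spread between libraries of 4.64%. Myc itself was at 490.4, 494 and 527 CPM. On the per-kilobase scale Myc was the highest of 13 members of its network, with its partner Max at 77.5 ± 2.54 CPM per kilobase, and Mycn and Mycl were at or below 0.0974 CPM.

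Among cytoskeletal genes, Actb (beta-actin) was at 5403, 6746 and 6186 CPM, lowest in replicate 1. Actb exceeded Actg1 by 4.81 ± 0.102-fold per kilobase, and this ratio was nearly the same in each library. Tmsb4x and Pfn1, which bind monomeric actin, were at 1664 ± 140.3 CPM and 1579.6 ± 222 CPM. Coro1a, the coronin of blood cells, was at 770.3 ± 81.7 CPM, and Lcp1, the plastin of blood cells, at 3160.2 ± 374 CPM. Of the muscle actins, Acta1 was at 0.089 ± 0.154 CPM, Actc1 at 0.0695 ± 0.061 CPM and Acta2, of smooth muscle, at 3 ± 1.24 CPM. Vim (vimentin) was at only 14.6, 11.4 and 12.8 CPM.

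The defining markers of the CD4 T cell label were present. All 16 measured genes of CD4 T cell identity were expressed, each at 100 CPM or more, and of the CD8 coreceptor chains Cd8a was at 0.445, 0 and 0.342 CPM and Cd8b1 at 10.6, 7.28 and 8.33 CPM. Cd4, the coreceptor for MHC class II, was at 464, 410.5 and 469.7 CPM. Its level was similar in the 3 libraries. Cd3e itself, the target of the plated antibody (NM_007648, chromosome 9, 44998735 to 45009663, GRCm38), was at 379.6, 427 and 435 CPM. Of the receptor chains, Cd3g was the highest per kilobase at 342 ± 53.1 CPM per kilobase, followed by Cd3e at 283 ± 20.5 CPM per kilobase, Cd3d at 186 ± 24.1 CPM per kilobase and the zeta chain Cd247 at 152 ± 1.07 CPM per kilobase. Cd3g was above Cd3e on this scale in each library. The level of Cd247 moved when all its transcript rows were averaged, from 248 to 114.81 CPM. The constant regions of the receptor were not analysed here.

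Cd5, a negative regulator whose level follows the strength of self-recognition, was the highest identity gene per kilobase, at 1176, 1357 and 1246 CPM and 609.5 ± 44.1 CPM per kilobase. Its relative Cd6 was at 929.6, 1053 and 955 CPM. Bcl11b, the transcription factor that keeps cells in the T lineage, was the lowest per kilobase at 20.5 ± 3.16 CPM per kilobase, with a long transcript and 166 ± 25.7 CPM.

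Markers of other cells were low. Of 18 B cell markers 7 were expressed, and their sum over the list was 49.0, 68.0 and 28.9 CPM. None was at 0. Cd74, the invariant chain, was at 10.3, 15.7 and 10.4 CPM. Cd79a, a signalling chain of the B cell receptor, was at 2.14, 2.36 and 1.48 CPM. All 7 were highest in replicate 2 and 6 of them lowest in replicate 3, apart from Cd74, so B cell genes varied together across the libraries. In bulk RNA, fewer cells of a type and less RNA per cell cannot be told apart. Of 17 myeloid markers 2 were expressed, Ctss (cathepsin S, 79.1 ± 6.47 CPM) and Cd68 (4.06 ± 0.447 CPM). The defining S100a8, S100a9, Csf3r and Marco had no count, and the list summed to 85.3, 81.4 and 92.1 CPM, nearly all of it Ctss. Among 10 dendritic cell markers only Bst2 was expressed, at 21.3 ± 1.74 CPM, a gene that interferon also raises in T cells, and Xcr1, Clec9a and Cd209a had no count. Natural killer and cytotoxic markers were expressed in 4 of 14 cases. They were Fasl at 56.8 ± 11.1 CPM, Prf1 (perforin) at 10.3 ± 0.737 CPM, Eomes at 26.7, 8.13 and 8.78 CPM (8.37 CPM without replicate 1) and Klrd1 at 2.81 ± 0.823 CPM. The granzyme genes Gzma, Gzmb and Gzmk were at 0.171 ± 0.15 CPM, 0.216 ± 0.281 CPM and 0.108 ± 0.115 CPM. Haemoglobin genes Hba-a1 and Hbb-bs were at 0.0593 ± 0.103 CPM and 0.237 ± 0.411 CPM, values that are uncertain if related haemoglobin genes share reads. Of 10 stromal and endothelial markers only Pecam1 (84.4 ± 19.2 CPM), which T cells also carry, and Acta2 (3 ± 1.24 CPM) were expressed. The part of other cells in any value was not tested.

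**Figure D2:**
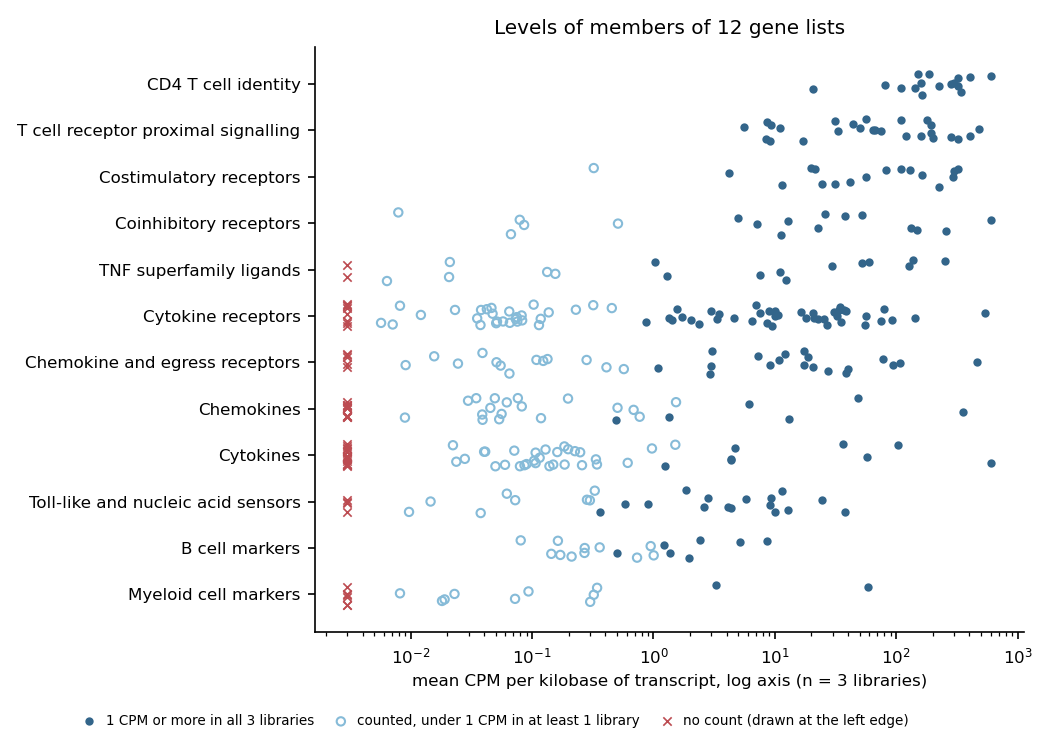
Mean CPM per kilobase of transcript on a log axis for every measured member of 12 gene lists, 1 point per gene. Filled points are genes expressed in all 3 libraries, open circles genes under 1 CPM in at least 1 library, and crosses at the left edge genes without a count. All 16 identity genes and all 26 signalling genes are filled, whereas 8 of 56 cytokines are.

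The signalling chain behind the receptor was present in full, with 26 of 26 proximal genes expressed and 19 at 100 CPM or more. Ptprc (CD45), the phosphatase that sets the activity of the first kinases, was at 2254, 2442 and 2645 CPM, the highest of the list per kilobase. Lck, the kinase bound to CD4, was at 619, 781 and 729 CPM, and it exceeded its relative Fyn by 1.68 ± 0.0315-fold per kilobase. The ratio kept between 1.65 and 1.71 over the libraries. Zap70, the kinase that docks on phosphorylated CD3 chains, was at 539.9, 711 and 641 CPM, and its substrates Lat and Lcp2 (SLP-76) at 499 ± 60.1 CPM and 711 ± 21.6 CPM. All 4 of Lck, Fyn, Zap70 and Lat were lowest in replicate 1. The whole list did not share this, since 10 of its 26 genes (38.5%) were highest there, against 32.0% of all expressed genes.

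The adaptors toward NF-kB were at lower per-kilobase levels than the first kinases. Bcl10 and Malt1 belong to the complex that links the receptor to NF-kB. Malt1 was at 74.9 ± 15.8 CPM per kilobase and Bcl10 at 65 ± 5.08 CPM per kilobase. Negative regulators were abundant as well. The phosphatase gene Ptpn22 was at 553 ± 70.5 CPM. Cblb, a ubiquitin ligase that raises the need for costimulation, was at 470.1, 407 and 464 CPM. Dgka and Dgkz, which remove diacylglycerol, were at 569.7 ± 28.7 CPM and 392 ± 39.6 CPM, with Dgka higher per kilobase by 2.15 ± 0.164-fold.

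Of 15 genes for RACK1, protein kinases C and D and diacylglycerol kinases, 13 were expressed. After Rack1, Dgka was the highest per kilobase at 201 ± 10.1 CPM per kilobase. Of the protein kinase C genes described here, Prkch (eta) was the highest per kilobase at 108 ± 6.14 CPM per kilobase, above Prkcq (theta), the isoform known from the T cell synapse, at 83.4 ± 9.27 CPM per kilobase. Their ratio was 1.31 ± 0.22-fold, with Prkch higher in each library. Of the calcium-dependent isoforms, Prkcb was at 36.3 ± 3.03 CPM per kilobase and Prkca at 10.5 ± 0.827 CPM per kilobase. Prkd1, a protein kinase D gene, had no count.

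Calcium signalling genes were expressed in 17 of 18 cases. Orai1, the pore of the store-operated channel, was at 141, 208 and 167 CPM. Nfatc1, the NFAT gene that receptor signals themselves raise, was at 305, 449.6 and 421 CPM and exceeded Nfatc2 by 10.047 ± 1.7-fold per kilobase. Both Orai1 and Nfatc1 were lowest in replicate 1, while 11 of the 17 expressed genes of the list were highest there. Nfatc4 had no count. Kcnn4, the potassium channel that sustains calcium entry in activated T cells, was by CPM the highest of 94 potassium channel genes at 311 ± 11.5 CPM, of which 12 were expressed.

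Costimulatory receptors were expressed in 16 of 17 cases and coinhibitory receptors in 12 of 17. Cd28 was at 734, 657 and 719 CPM. Its relative Icos, which appears after activation, was at 136 ± 9.9953 CPM. The inhibitory Ctla4, which competes for the same ligands, was at 19.2, 9.55 and 12.8 CPM, highest in replicate 1. Per kilobase, Cd28 exceeded Icos by 3.89 ± 0.499-fold and Ctla4 by 24.2 ± 6.84-fold. Receptors of the tumour necrosis factor family that arise on activation were present. Tnfrsf9 (4-1BB) was at 552, 685 and 615 CPM. Per kilobase it exceeded Tnfrsf4 (OX40), at 113 ± 5.72 CPM, by 2.69 ± 0.227-fold. Tnfrsf18 (GITR) was at 67.6 ± 2.94 CPM. Tnfrsf8 (CD30) was at 0.89, 1.61 and 0.799 CPM, the only listed costimulatory gene below the threshold.

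Pdcd1 (PD-1), an inhibitory receptor that activation raises, was at 195, 312 and 259.9 CPM, with replicate 1 lowest. Per kilobase it exceeded Ctla4 in each library, by ratios from 10.2 to 32.7. Vsir (VISTA), known from resting T cells, was at 717 ± 107 CPM, and Btla at 171 ± 6.86 CPM. Apart from Pdcd1, at 133 ± 30.4 CPM per kilobase, receptors tied to exhaustion were lower per kilobase or near 0. Lag3 was at 11.2 ± 2.49 CPM per kilobase, Tigit at 4.98 ± 1.29 CPM per kilobase, Havcr2 (TIM-3) at 0.079 ± 0.0714 CPM per kilobase and Entpd1 (CD39) at 0.0858 ± 0.0529 CPM per kilobase. Nt5e (CD73) was at 32.3, 65.3 and 55.7 CPM, and its values in replicates 2 and 3 were higher than in replicate 1.

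Ligands of the tumour necrosis factor family were expressed in 11 of 18 cases. Ltb (lymphotoxin beta) was the highest per kilobase, at 252 ± 23.9 CPM per kilobase. Tnf was at 169.9, 274 and 228 CPM, with the lowest value in replicate 1. Cd40lg (NM_011616, chromosome X, 57212143 to 57224042, GRCm38), the ligand under study, was at 141, 153 and 188 CPM. Its highest value was in replicate 3. Per kilobase Cd40lg came after Ltb and Tnf, at 128 ± 19.6 CPM per kilobase, and it lay within the spread of Tnf at 137 ± 31.8 CPM per kilobase. Lta was at 83.2 ± 6.66 CPM, Tnfsf8 (CD30L) at 198 ± 23.1 CPM and Tnfsf11 (RANKL) at 27.7 ± 6.05 CPM. Cd70 and Tnfsf13 had no count.

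The receptors to which CD40L binds differed widely in level. Cd40 itself was at 1.07, 1.7 and 0.456 CPM, in the order of the B cell genes across libraries. Of the integrins reported to bind CD40L, the beta-1 chain Itgb1 was at 118 ± 7.79 CPM and the alpha-5 chain Itga5 at 9.2 ± 1.01 CPM. Itgam, of the Mac-1 integrin, was at 1.61 ± 0.869 CPM. The platelet integrin chains Itga2b and Itgb3 were at 1.29 ± 0.268 CPM and 19.2 ± 5.26 CPM. The LFA-1 chains Itgal and Itgb2, listed beside them, were at 550.4 ± 31 CPM and 426 ± 71.5 CPM. Downstream of receptors of this family, 23 of 23 TRAF and NF-kB genes were expressed. Nfkb1 was the highest per kilobase, at 1174, 1223 and 1201 CPM, and exceeded Nfkb2 by 3.44 ± 0.168-fold. Traf1, itself an NF-kB target, exceeded Traf5 by 7.82 ± 0.5-fold on the same scale.

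Cytokine genes were mostly silent. Of 56 genes 8 were expressed (14.3%, against 48.3% of all protein-coding genes), 30 were counted below the threshold and 18 had no count. The expressed genes were led per kilobase by Mif, a factor that most cells make, at 600.2 ± 69.9 CPM per kilobase. Tgfb1 followed at 103 ± 3.95 CPM per kilobase, with 229, 228 and 214 CPM. Il16, whose precursor resting T cells store, was at 203, 169 and 175 CPM. Of the IL-6 family, Clcf1 was at 67.2 ± 1.79 CPM, Osm (oncostatin M) at 10.7 ± 2.06 CPM and Lif at 4.68 ± 1.68 CPM. Flt3l was at 4.7 ± 0.953 CPM.

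Il2 (NM_008366, chromosome 3, 37120713 to 37125954, GRCm38), the growth factor that stimulated naive cells are known for, was at 6.23, 3.97 and 4.68 CPM from 70, 42 and 41 counts. It was thus expressed in every library, at 4.34 ± 1.01 CPM per kilobase. The effector cytokines of helper lineages did not pass the threshold. Ifng, of the TH1 lineage, was at 0.445, 0 and 0.456 CPM. Il4, of the TH2 lineage, was counted in replicate 3 alone, at 0, 0 and 0.228 CPM. Il13, Il9, Il10, Il21, Il22, Il17a and Il17f had no count in any library. Csf2 (GM-CSF) had a mean of 0.129 ± 0.0436 CPM, and Il3 of 0.215 ± 0.229 CPM, a few counts in each case.

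Of 36 chemokine genes 6 were expressed. Xcl1 (lymphotactin) was the highest, at 155, 225 and 181 CPM and 357 ± 67.3 CPM per kilobase. The inflammatory chemokines Ccl4 and Ccl3 had means of 31.7 ± 6.07 CPM and 10.1 ± 1.44 CPM. Per kilobase, Xcl1 exceeded Ccl4 by 7.44 ± 0.038-fold, a ratio that hardly changed between libraries although both genes were lowest in replicate 1. Ccl22 was at 1.42, 3.12 and 0.57 CPM and did not reach the threshold in replicate 3. Ccl5, abundant in memory and effector T cells, was at 0.712, 0.0946 and 0 CPM.

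Cytokine receptors were the largest list, with 41 of 77 expressed, 28 below the threshold and 8 without a count. The expressed share of 53.2% was near the 48.3% of all protein-coding genes. The common gamma chain Il2rg was the highest per kilobase, at 875, 937 and 910.4 CPM. Il2ra (CD25), the activation-induced chain of the high-affinity IL-2 receptor, was at 585, 617 and 673 CPM. Il2rb, the chain shared with the IL-15 receptor, was at 144 ± 21.5 CPM. Per kilobase, Il2ra exceeded Il2rb by 4.19 ± 0.634-fold. Il7r, the survival receptor of naive cells, was at 228, 138 and 219 CPM, lowest in replicate 2, and lay below Il2ra in each library with a ratio of 0.39 ± 0.104. Il21r was at 233 ± 18.5 CPM, Il4ra at 183 ± 4.06 CPM and Il6st (gp130) at 336 ± 16.9 CPM. Il15ra was at 14.2 ± 1.07 CPM.

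Receptors that guide helper polarisation were unevenly represented. For interferon gamma, Ifngr1 had a mean of 119 ± 20.9 CPM and Ifngr2 of 35.2 ± 4.76 CPM. Il12rb1 was at 9.88 ± 2.02 CPM. Il12rb2, the chain that confines IL-12 responses to TH1 cells, was at 0.89, 1.13 and 2.05 CPM, under the threshold in replicate 1. Il18r1 was at 12.3 ± 1.74 CPM (6.93 CPM with its rows averaged) and its partner Il18rap at 0.669 ± 0.217 CPM. Tgfbr2 was at 276 ± 4.54 CPM and Tgfbr1 at 57.7 ± 4.28 CPM. Il23r, of the TH17 lineage, had no count, and Il1r1 was at 0.278 ± 0.244 CPM. Il1rl1 (ST2), of TH2 cells, was at 0.604 ± 0.227 CPM. Receptors for colony-stimulating factors were low: Csf1r was at 0.0315 ± 0.0546 CPM, Csf3r had no count and Csf2ra was at 3.79 ± 0.78 CPM.

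Of 37 chemokine and egress receptors 19 were expressed (51.4%, near the 48.3% of all protein-coding genes). Lymph node homing and exit receptors led the list per kilobase. Ccr7 was at 1111, 812 and 819.5 CPM and 462 ± 86.1 CPM per kilobase. S1pr1, the receptor for exit along sphingosine phosphate, was at 277, 205 and 229.8 CPM. Both receptors were highest in replicate 1. Receptors of inflamed tissue were much lower per kilobase. Cxcr3, of TH1 cells, was at 2.94 ± 1.15 CPM per kilobase, and Ccr4, of TH2 cells, at 9.17 ± 3.22 CPM per kilobase. Ccr8 was at 12.8, 28.5 and 20.4 CPM, highest in replicate 2. Ccr6, of TH17 cells, was at 0.0909 ± 0.0891 CPM and Ccr2 at 0.401 ± 0.3 CPM. Cxcr5, of follicular helper cells, was at 6.05, 10.9 and 7.07 CPM.

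Activation markers were expressed in 24 of 26 cases, and 17 reached 100 CPM. Irf4 (NM_001347508, chromosome 13, 30749233 to 30766981, GRCm38), a transcription factor whose level follows receptor signal strength, was at 1301, 1544 and 1624 CPM. Nr4a1 (Nur77), the orphan receptor used to report receptor signals, was at 743, 1033 and 915 CPM and was the highest marker per kilobase at 362 ± 58.9 CPM per kilobase. Irf4 followed at 313 ± 35.3 CPM per kilobase, and lay below Nr4a1 in each library. Irf4 exceeded Irf8, a relative of B and myeloid cells, by 17.5 ± 2.91-fold per kilobase. Of the relatives of Nr4a1, Nr4a3 was at 452 ± 53.6 CPM and Nr4a2 at 131 ± 15.8 CPM. Egr1, Egr2 and Egr3, induced through the RAS and calcium arms, were at 377 ± 69.3 CPM, 298 ± 85.2 CPM and 188 ± 26.9 CPM. Egr2 spread most, at 203, 367 and 324 CPM. Cd69, which holds cells in tissue early after stimulation, was at 289, 368 and 321 CPM. Tfrc, the transferrin receptor, was at 210.3 ± 17.9 CPM. Ier3 and Batf3 were the 2 markers not expressed, at 0.383 ± 0.311 CPM and without a count.

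The AP-1 genes split. Jund was at 231, 249.9 and 199 CPM. Jun, the founding member, was at 10.3, 7.47 and 7.19 CPM. Jund exceeded Jun by 53.2 ± 10.6-fold per kilobase, and Junb exceeded Jun by 41.9 ± 9.85-fold. Fos, which rises and falls early after a signal, was at 22, 30.7 and 34.7 CPM. Fosl2, slower to rise than Fos in many cells, lay at the same per-kilobase level as Fos, with a ratio of 1.03 ± 0.125. Batf, the AP-1 partner of IRF4, was at 10.8, 12.6 and 12.8 CPM. Feedback phosphatases of the MAP kinases were present, led per kilobase by Dusp2 at 340.3, 469 and 413 CPM. Dusp6, specific to ERK, was at 109, 163 and 148 CPM, lowest in replicate 1. Spry1, an inhibitor of RAS signals, was at 293, 378 and 389 CPM, and its relatives Spry2 and Spry4 at 0.963 ± 0.322 CPM and 2.66 ± 0.406 CPM. Of the 22 expressed AP-1 and immediate early genes only 2 were highest in replicate 1, against 32.0% of all expressed genes.

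**Figure D3:**
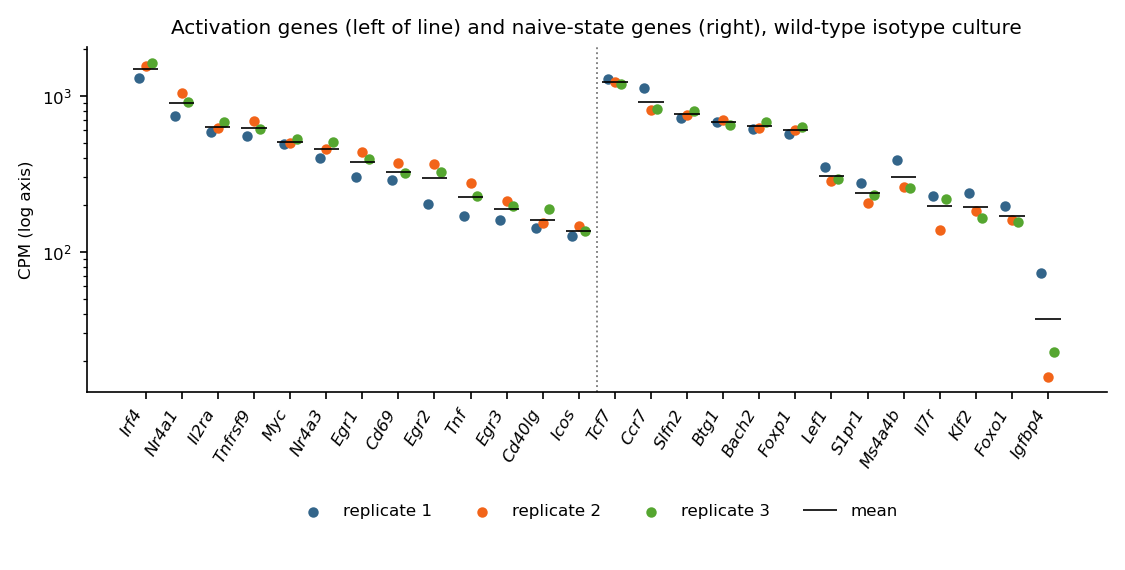
CPM on a log axis in each of the 3 libraries for 13 activation genes, left of the dotted line, and 13 naive-cell genes, right of it. Coloured points are replicates and black lines means. Irf4 and Tcf7 head the groups, both above 1000 CPM, and Igfbp4 at the far right has replicate 1 far above the others.

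Genes of the naive and quiescent state were all still present, with 31 of 31 expressed and 22 at 100 CPM or more. Tcf7 (TCF-1, NM_001313981, chromosome 11, 52246527 to 52283383, GRCm38) was the highest per kilobase, at 1285, 1224 and 1183 CPM and 707 ± 29.4 CPM per kilobase, above its relative Lef1 by 8.06 ± 0.662-fold. Lef1 was at 348, 282 and 291 CPM. Slfn2, required for quiescence, was at 757 ± 36.4 CPM. Other factors that hold T cells at rest were at 676 ± 23.6 CPM for Btg1, 600.4 ± 29.5 CPM for Foxp1 and 635 ± 39 CPM for Bach2. Klf2, which drives S1pr1, was at 236, 181 and 163 CPM. Foxo1, which in turn drives Klf2, was at 195, 159.5 and 156 CPM, and both were highest in replicate 1. All 8 genes of the Gimap family of lymphocyte GTPases were expressed, with Gimap3 at 609 ± 23.1 CPM. Cd44, used to tell memory from naive cells, was at 84.5, 59 and 62.7 CPM.

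The naive list was not uniform over libraries. Of its 31 members 20 (64.5%) were highest in replicate 1, against 32.0% of all expressed genes. Igfbp4, which binds insulin-like growth factors and marks naive T cells, was at 72.7, 15.8 and 22.7 CPM. Without replicate 1 its mean fell to 19.0 CPM. Dapl1 was at 24.2, 12.7 and 9.47 CPM, again with replicate 1 well above the others. Ms4a4b, a tetraspan gene of naive T cells, was at 385, 258 and 256 CPM, and Klf2 was also highest in replicate 1. Tcf7 differed by much less. The 31 genes had a median spread of 11.8% between libraries.

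Regulators of helper lineages were expressed in 28 of 32 cases. Ikzf1 and Ets1, general lymphocyte factors, were at 1028 ± 63.6 CPM and 1010.1 ± 108 CPM. Tbx21 (T-bet), the TH1 regulator, was at 0.801, 0.189 and 0.684 CPM and below the threshold in each library. Gata3, of TH2 cells and of all CD4 T cells at a lower level, was at 19.7, 15.3 and 13.3 CPM. Foxp3, which defines regulatory T cells, was at 18.3, 19.5 and 16.1 CPM. Ikzf2 (Helios), found in many of those cells, was at 3.46 ± 0.201 CPM. Bcl6, of follicular helper cells, was at 62.8, 106 and 86.6 CPM, while its antagonist Prdm1 (BLIMP-1) had a mean of 2.72 ± 0.288 CPM. On the per-kilobase scale Foxp3 and Gata3 lay together, with a ratio of 0.971 ± 0.154. Zbtb7b (ThPOK), which fixes the CD4 fate, was at 115 ± 10.3 CPM. Maf, an activator of Il4 and Il10, was at 7.74, 21.8 and 15.3 CPM, lowest in replicate 1, and the xenobiotic sensor Ahr had a mean of 2.7 ± 0.635 CPM. Hlx had no count.

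The cytokine signal transducers were present in 19 of 20 cases. Jak1 was the highest per kilobase at 162 ± 4.29 CPM per kilobase and exceeded Jak3, its partner on the gamma chain, by 14.9 ± 0.993-fold. Stat6 was at 388 ± 12.6 CPM, Stat3 at 185 ± 11 CPM, Stat4 at 109 ± 11 CPM, Stat5a at 152 ± 22.7 CPM and Stat5b at 177 ± 16.8 CPM. The feedback inhibitors Socs1, Socs3 and Cish had means of 20.2 ± 0.679 CPM, 11.9 ± 3.91 CPM and 32.1 ± 10.5 CPM. Socs2 was below the threshold at 0.438 ± 0.316 CPM.

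Cell cycle genes differed widely in level, within a phase as well as between phases. Ccnd2, the D cyclin that receptor signals raise, was at 1461, 1479 and 1698 CPM. Its kinase Cdk4 was at 318, 329.6 and 311 CPM. Ccnd2 was highest in replicate 3, with an SD over mean of 8.52%, while Cdk4 differed less between the libraries. Per kilobase Ccnd2 exceeded Ccnd3 by 5.54 ± 1.2-fold, and Ccnd1, absent from most blood cells, was at 1.31 ± 0.465 CPM. Genes of replication origins were present, with the helicase subunits Mcm6 at 244 ± 2.15 CPM, Mcm2 at 159 ± 6.47 CPM and Mcm5 at 120.3 ± 4.35 CPM. Pcna, the sliding clamp of DNA polymerase, was at 274, 301 and 292 CPM. Nucleotide supply genes of S phase were low, with means of 2.41 ± 0.768 CPM for Rrm2, 5.72 ± 0.331 CPM for Tyms and 1.08 ± 0.0918 CPM for Tk1. Ccne1, the cyclin of S phase entry, was at 5.07, 5.01 and 2.51 CPM. Mitotic genes lay on both sides of the threshold. Cenpa, the histone of centromeres, was at 18.3 ± 2.78 CPM, the cyclin gene Ccna2 at 16.9 ± 2.34 CPM, and Cdc20 and Aurka at 7.9 ± 0.37 CPM and 4.47 ± 1.11 CPM. Mki67, the usual marker of dividing cells, was at 2.4, 1.89 and 1.83 CPM. Cdk1, the kinase of mitosis, was at 0.623, 0.851 and 0.913 CPM. Ccnb1 and Aurkb, which act with it in mitosis, were at 0.529 ± 0.377 CPM and 0.194 ± 0.16 CPM, and Top2a at 5.08 ± 1.18 CPM. Pcna exceeded Mki67 per kilobase by 757 to 1059-fold, and Cdk4 exceeded Cdk1 by 725 to 1088-fold. The inhibitors Cdkn1b (p27) and Cdkn1a (p21) were at 65.5 ± 6.59 CPM and 94.1 ± 7.86 CPM, and the senescence genes Cdkn2a and Cdkn2b at 0.0593 ± 0.103 CPM and 0.0315 ± 0.0546 CPM.

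**Figure D4:**
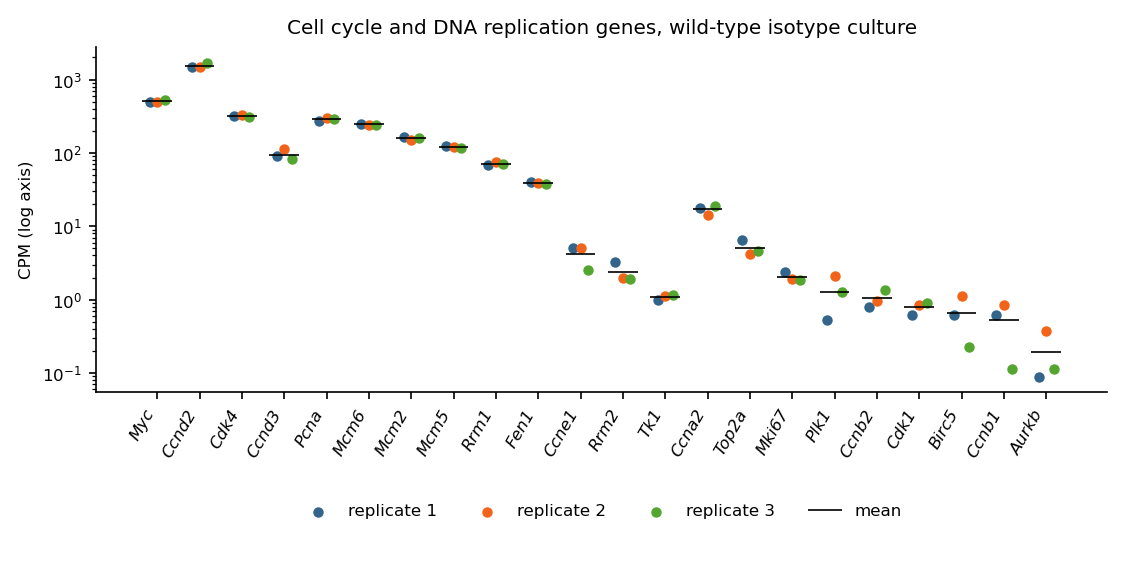
CPM on a log axis in each of the 3 libraries for 22 genes of the cell cycle and DNA replication. Coloured points are replicates and black lines means. Ccnd2, Cdk4, Pcna and the Mcm genes lie above 100 CPM, and Mki67, Cdk1, Ccnb1 and Aurkb below 3 CPM.

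Genes of the BCL-2 family, which holds both survival and death members, were expressed in 16 of 21 cases. Mcl1, needed by naive and activated cells alike, was at 439.8, 418 and 427 CPM. Bcl2l1 (BCL-XL), which costimulation raises, was at 85.7 ± 8.12 CPM. Bcl2, the factor of resting cells, was at 101 ± 3.69 CPM, or 63.9 CPM when its transcript rows were averaged. Bcl2a1b was at 157 ± 21.8 CPM, but it has near-identical copies, so its share among them is uncertain. Of the members that promote death, Bax was at 137 ± 17.8 CPM, Bcl2l11 (BIM) at 159.7 ± 20.5 CPM (102 CPM with its rows averaged) and Pmaip1 (NOXA) at 7.38 ± 1.55 CPM. The death receptor Fas was at 40.1 ± 6.03 CPM, or 22.96 CPM when its rows were averaged, and its ligand Fasl at 46, 56.3 and 68.2 CPM.

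Glycolysis genes were expressed in 30 of 44 cases, with 1 leading isoform at most steps. Per kilobase Aldoa was the highest at 743 ± 53.7 CPM per kilobase, followed by Ldha at 555 ± 29.5 CPM per kilobase and Pkm at 552 ± 35.4 CPM per kilobase. Ldha and Pkm lay within each other's spread. Ldha exceeded Ldhb by 28.8 ± 5.66-fold, while the liver isoform gene Pklr was at 0.0927 ± 0.0946 CPM. The glucose transporter gene Slc2a1 (GLUT1) was at 66.5, 74.2 and 57.2 CPM, above Slc2a3 by 3.26 ± 0.44-fold per kilobase, and Slc2a4 had no count. Hk1 exceeded Hk2 by 2.43 ± 0.371-fold. Gapdh was listed at only 5.96, 7.09 and 5.48 CPM. Per kilobase this was 4.85 ± 0.651 CPM per kilobase, far below its neighbour in the pathway Pgk1 at 294 ± 13 CPM per kilobase. Gapdh has many near-identical pseudogene copies, and the treatment of multiply aligned reads was not stated in the labels, so this value is uncertain and the part of the copies was not tested.

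Nutrient transporters, which activated T cells are known to raise, were well represented. Of 26 listed, 20 were expressed and 13 reached 100 CPM. Slc1a5 (ASCT2), for glutamine, was at 601, 695 and 649 CPM. The chains of the large neutral amino acid transporter, Slc7a5 and Slc3a2, were at 250.2 ± 7.02 CPM and 259.8 ± 18.9 CPM. Slc38a1 and Slc38a2 were at 384 ± 16 CPM and 227 ± 16.5 CPM, and Slc7a1, for arginine, at 348 ± 20.5 CPM. The cystine carrier Slc7a11 was at 1.25, 1.13 and 1.03 CPM. Of 375 solute carrier genes by symbol, 175 (46.7%) were expressed, near the 48.3% of all protein-coding genes.

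Sterol, one-carbon and respiratory genes were broadly present. Cholesterol and fatty acid genes were expressed in 25 of 28 cases. Acly, Hmgcs1 and Srebf2 headed them per kilobase, within a narrow range of 88.2 to 84.5 CPM per kilobase. Fasn, the fatty acid synthase, was at 664, 570.2 and 640.2 CPM. Cyp51, an enzyme of cholesterol synthesis, was by CPM the highest of 99 cytochrome P450 genes at 324 ± 36.5 CPM. Atf4, the factor of the amino acid response, was at 379, 394 and 389 CPM, and its target Asns at only 2.62 ± 1.09 CPM. Shmt2 was at 366 ± 18.7 CPM and Phgdh at 103 ± 3.16 CPM. Respiratory chain genes were expressed in 27 of 31 cases. Atp5b, a subunit of the ATP synthase, was at 1356, 1381 and 1346 CPM. The isoforms of muscle, Cox7a1 and Cox4i2, were at 0.184 ± 0.159 CPM and 0.0974 ± 0.0902 CPM, and Cox6a2 and Cox8b had no count. Chaperones of the endoplasmic reticulum were expressed in 22 of 23 cases, with Hspa5 (BiP) at 1178 ± 98.6 CPM and Calr at 1157 ± 71.8 CPM, while the stress factor Ddit3 (CHOP) was at 19.7 ± 2.41 CPM.

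Chromatin genes were expressed in 36 of 39 cases. Chd4, the motor of the NuRD complex, was the highest per kilobase at 205 ± 6 CPM per kilobase and 1403, 1324 and 1358 CPM. Dnmt1, the maintenance DNA methyltransferase, was at 139 ± 5.95 CPM, and its partner Uhrf1, which rises in S phase, at 18.6 ± 3.69 CPM. Dnmt3a exceeded Dnmt3b by 7.29 ± 1.02-fold per kilobase and was above Dnmt1 in each library, with a ratio of Dnmt1 to Dnmt3a of 0.83 ± 0.0693. Kdm6b, the H3K27 demethylase that stimulation raises, was at 365, 461 and 452 CPM. Tet3 was the highest TET gene per kilobase at 26.4 ± 2.28 CPM per kilobase, and Tet1 was at 3.37 ± 0.37 CPM.

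Innate sensing genes were low in level. Of 28 sensors and adaptors 16 were expressed (57.1%, against 48.3% of all protein-coding genes) and none reached 100 CPM. The adaptors Myd88 and Sting1 headed the list per kilobase, at 37.8 ± 3.18 CPM per kilobase and 24.3 ± 1.38 CPM per kilobase. Of the Toll-like receptors, Tlr1 was at 15, 10.2 and 12.2 CPM and Tlr12 at 1.84 ± 0.705 CPM. Tlr2, Tlr4, Tlr7 and Tlr9 lay below the threshold, and Tlr5, Tlr8, Tlr11 and Tlr13 had no count.

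Interferon-stimulated genes were expressed in 26 of 39 cases, and 2 exceeded 100 CPM, the GTPase genes Ifi47 at 128 ± 19.6 CPM and Igtp at 106 ± 39.3 CPM. Targets of type I interferon varied in level. Mx1 was at 0.127 ± 0.134 CPM, Rsad2 at 0.5 ± 0.207 CPM and Isg15 at 1.92 ± 0.852 CPM, while Ifit2 was at 33.4 ± 4.54 CPM, Trim30a at 36.1 ± 3.19 CPM and Parp14 at 58.4 ± 19 CPM. This list spread more between libraries than any other of 20 or more expressed genes described here, with a median SD over mean of 30.9%. Of its 26 expressed genes 16 were highest in replicate 3. Gbp7, a guanylate-binding protein, was at 20.8, 14.7 and 48.4 CPM, and its mean was 17.8 CPM without replicate 3. Igtp was at 87.7, 78.8 and 151 CPM, also with replicate 3 high. Gbp5 had its highest value in replicate 1, at 37.6, 8.51 and 21.2 CPM, and a mean of 14.7 CPM without it. Irf1, which drives guanylate-binding proteins, was at 89.4, 77.4 and 103 CPM. MHC class I genes were steady beside them, with B2m at 1289 ± 42.8 CPM and H2-K1 at 1538 ± 35.6 CPM. Reads shared between class I genes make their split uncertain.

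Over all genes the libraries agreed closely. The median SD over mean was 6.71% among the 6877 genes at 20 CPM or more, where counting alone gives 3.78%, and 37 of these genes exceeded 30%. The common biological coefficient of variation was 0.092. Predicted genes, pseudogenes and rows without a symbol were left out of the ranking by spread. NR_046233, for example, had an SD over mean of 38.8%. Among the 15 remaining genes of largest spread were Igfbp4, Sumo2, Mfap1b, Lad1, Abcg1, Rpl7a and Ccr8. Of the 15, 7 are guanylate-binding proteins or interferon-induced GTPases (Gbp2, Gbp4, Gbp5, Gbp7, Tgtp1, Tgtp2 and Igtp). Sumo2, a protein modifier with processed copies elsewhere, was at 34.6, 30.7 and 75.6 CPM. Rpl7a, a ribosomal gene with such copies too, was at 437, 741 and 372 CPM. The treatment of reads from such copies was not stated in the labels.

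**Figure D5:**
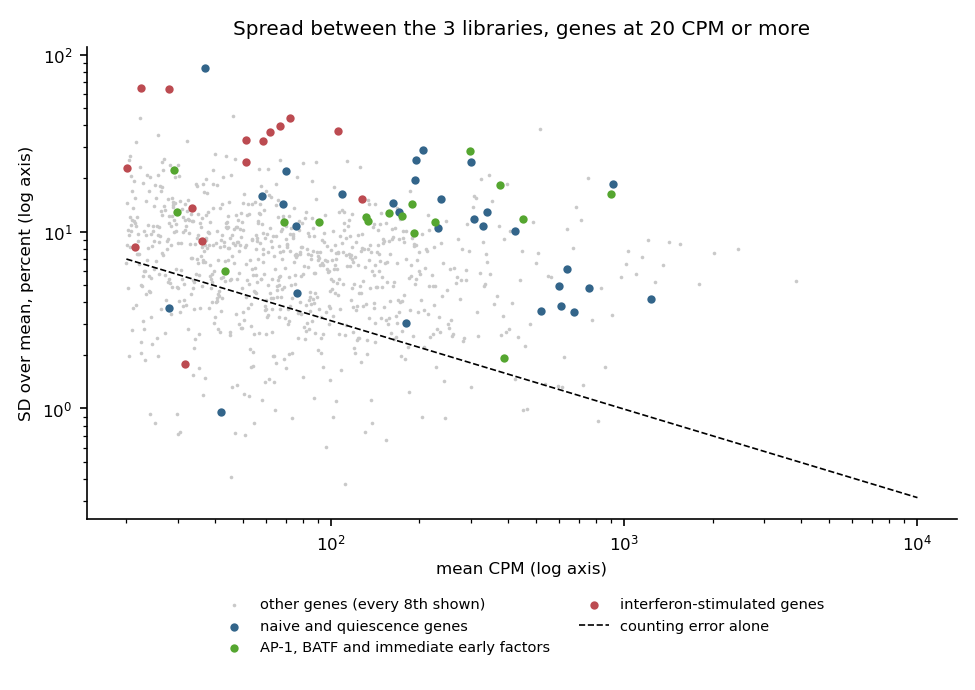
SD over mean between the 3 libraries, in percent, against mean CPM for genes at 20 CPM or more, both on log axes. Grey points are a regular sample of genes on no coloured list, coloured points the naive, immediate early and interferon lists, and the dashed line is the spread that counting alone gives. Most genes lie above the line, and several interferon-stimulated genes and Igfbp4 lie above 30%.

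Several lists leaned toward 1 library. Among expressed genes as a whole 32.0%, 36.7% and 31.3% were highest in replicates 1, 2 and 3. Besides the naive and immediate early lists, endoplasmic reticulum chaperones were highest in replicate 1 in 0 of 22 cases. Respiratory chain genes were highest in replicate 2 in 19 of 27 cases (70.4%), and cytosolic chaperones in replicate 3 in 10 of 14 (71.4%). The median SD over mean was 7.28% for the endoplasmic reticulum chaperones, 6.76% for the respiratory chain genes and only 2.73% for the cytosolic chaperones. Over all expressed genes it was 8.57%. Sex-linked genes matched across libraries, with Xist at 421, 361 and 408 CPM, Uty, Kdm5d and Eif2s3y without a count and Ddx3y at 1 count in all. What set these differences was not tested.

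Families tied to other tissues were silent or nearly so. Of 1108 olfactory receptor genes none was expressed and 1011 had no count. The highest by CPM, Olfr99, was at 0.868 ± 0.192 CPM. None of 39 Hox genes and none of 42 beta-defensins was expressed. Of 354 vomeronasal receptors 2 were expressed, Vmn2r96 at 2.32 ± 0.287 CPM and Vmn2r84 at 1.86 ± 0.76 CPM, and of 53 keratins 1, Krt10 at 2.87 ± 0.486 CPM. At the other end, all 78 mitochondrial ribosomal protein genes were expressed, as were 38 of 40 proteasome subunits and 298 of 391 zinc finger genes with a Zfp symbol. These families were taken by symbol, after values had been seen.

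Noncoding RNAs ranged widely in level. Gm15772, a predicted gene, was listed among the 100 most abundant at 991, 1129 and 988 CPM. Its counts of 11139, 11940 and 8662 were nearly those of the ribosomal gene Rpl26, at 11099, 11908 and 8632. Its level is therefore uncertain, and whether both rows were credited with the same reads was not tested. Malat1 was at 519, 572 and 693 CPM, and Neat1, of paraspeckles, at 145, 126 and 134 CPM. Gas5, a host of small nucleolar RNAs that carries a terminal oligopyrimidine start, was at 163, 146 and 152 CPM. Norad was at 272 ± 11.3 CPM and Mir155hg, the host of miR-155, at 45.1 ± 4.64 CPM. The library kit named in the labels is made for mRNA, so noncoding RNAs without a poly(A) tail may be counted in part only.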

How the data were processed

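The authors deposited 1 table of expected counts for 42361 RefSeq transcripts in 9 libraries, in steps of 0.5. Per the submitters' processing notes, CASAVA 1.8.2, HISAT2 2.1.0 and the mm10 build were used. The counting program, its use of strand and its handling of multiply aligned reads were not given in the sources used here. The 3 wild-type isotype columns were read by name. Transcripts were named by the RefSeq table (GRCm38.p6, 42203 rows) or GENCODE vM21 (65 rows), and 93 stayed without a symbol. The row of highest total over the 3 libraries was kept per gene. Expected counts were rounded to whole numbers and scaled to CPM with TMM in edgeR 4.0.16 (R 4.3.3). Python 3.11.15 with pandas 2.3.3 and matplotlib 3.10.9 did the rest. Transcript lengths came from GENCODE, and 466 genes without one have no per-kilobase level.

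The files support no test within 1 group, so values are given as mean ± SD over 3 libraries, and intervals and the limit of 3 counts cover counting error only. Genes were named as members of 52 lists (1205 of 1219 symbols measured) and as the 30 most abundant by CPM and per kilobase. Added to these were the 15 of largest spread at 20 CPM or more, without predicted genes, pseudogenes and rows lacking a symbol. Some members of these lists are not reported here. The members and lists were chosen with earlier results of these data known, and the 60 gene pairs, the symbol families and the printed promoters after values were seen. Scaling and counting of levels were tested on simulated data. Alternatives were no TMM, another choice or the mean of transcript rows, noncoding rows left out of the total, other thresholds, no length correction and leaving out each library.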

Additional observations from a re-analysis of the deposited data

How the results depend on the processing

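The number of expressed genes was 9931 at 2 CPM, 11083 at 0.5 CPM and 10905 for 1 CPM on the mean, and from 10630 to 10676 when each library was left out in turn. Genes at 100 CPM or more numbered 2392 to 2441, and genes without a count 7972 to 8697, without 1 library. Removing a library cannot lower the number without a count and can hardly lower the number expressed, so their rise is by construction. The share of the 100 most abundant genes was 20.1% to 21.1% without 1 library and 19.0% with the most abundant noncoding rows left out of the total, a step that removes counts by construction. The median spread at 20 CPM or more was 4.79% to 6.04% without 1 library. These values rest on 2 libraries and cannot be set against the 6.71% from 3, since fewer values give a lower median SD. In 39 of 52 lists the same gene was highest by CPM as per kilobase. Of 897 named genes, 98 moved by more than 1 SD when transcript rows were averaged, 15 of them by over 1.5 times, and none when TMM was left out. Levels under about 1 CPM rest on few counts, and the 3 libraries cannot show which spread is between animals. No paired analysis was possible because only 1 group was described and no group test was made.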
